A study of Arabidopsis thaliana with 12 samples.

Results

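The response of wild-type Arabidopsis thaliana seedlings to chitin was described from 6 RNA-seq libraries, 3 of mock-treated and 3 of chitin-treated Col-0 (written Col), out of 12 in the series. The 6 libraries were chosen by their column labels and hold no other difference in genotype. Seedlings were whole, grown for 8 days, kept in liquid medium for 3 h, and treated for a further 3 h. The chitin dose is 40 µM in the treatment protocol and 40 mM in the design text, and the sources used here do not settle which was used. Both groups were Col-0 with no introduced allele, and the replicate number, 1 to 3, marks 3 independent experiments. All 20994 genes that passed an expression filter, of 32678 in the table, were described. The other 6 libraries, of the mapkkk5-1 mutant, entered the fit to estimate the spread between libraries and their values are given only in the closing section.

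Chitin is the polymer of fungal cell walls, and fragments of it are bound at the plant cell surface by receptor kinases with LysM domains, with CERK1 as the central receptor in Arabidopsis. Binding is followed by an influx of calcium, production of reactive oxygen by NADPH oxidases and activation of MAP kinase cascades. These steps end in large changes of transcription, in which WRKY and ERF transcription factors take part, and defence and growth are known to be adjusted against each other.

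The Col libraries held 15455836 to 20179428 reads, so that a count of 0 leaves room for 3 reads, or 0.152 to 0.200 CPM (counts per 1000000 reads), by counting error only. Levels below are in CPM scaled by TMM factors, and log2 fold changes carry ± SE. Each adjusted p was computed by the quasi-likelihood test of edgeR and adjusted by Benjamini-Hochberg over the genes tested. In the Col libraries alone, the first principal component held 72.2% of the variance and separated mock from chitin, and the second, with 12.1%, ordered the libraries by experiment. The first mock library stood apart in 9 seed storage and oil body genes, which summed to 24.8 CPM there and to 0.254 to 1.17 CPM in the other 5. Without that library 7052 genes were called, against 8083 with it. Leaving out 1 of the other 5 Col libraries instead gave 6744 to 7462. Among markers of the seedling's parts, the 4 mesophyll markers summed to 11490 to 13580 CPM in mock and to 7817 to 9272 CPM in chitin. The 16 root markers summed to 178.8 to 217.8 CPM in mock and to 220.2 to 261.4 CPM in chitin, and the 8 vascular markers to 239.5 to 255.9 and 243.0 to 304.9 CPM. The 9 markers of stomatal lineage and shoot apex summed to 42.3 to 52.7 CPM in mock and to 34.4 to 45.8 CPM in chitin, and the 2 pollen markers were at or below 0.295 CPM throughout. No root marker was at 0 in any library. In whole seedlings, fewer cells of a type and less RNA per cell cannot be told apart.

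Chitin changed the level of 8083 genes, 38.5% of those tested, in 3 h. Of these, 4458 rose (21.2%) and 3625 fell (17.3%). The 2 directions differed in size: 1553 genes rose at least 2-fold (7.4% of those tested) and 602 fell as much (2.87%). Rises of at least 16-fold were found for 119 genes and falls of that size for 4. Changes under 2-fold were about as frequent upward, with 2905 genes, as downward, with 3023. The values of the 2 groups did not overlap for 10377 genes, 49.4% of those tested. Upper-quartile scaling, under which the log2 fold change of the median gene was -0.11, gave 3583 raised and 5017 lowered genes, a share of raised calls of 41.7% against 55.2%.

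**Figure D1:**
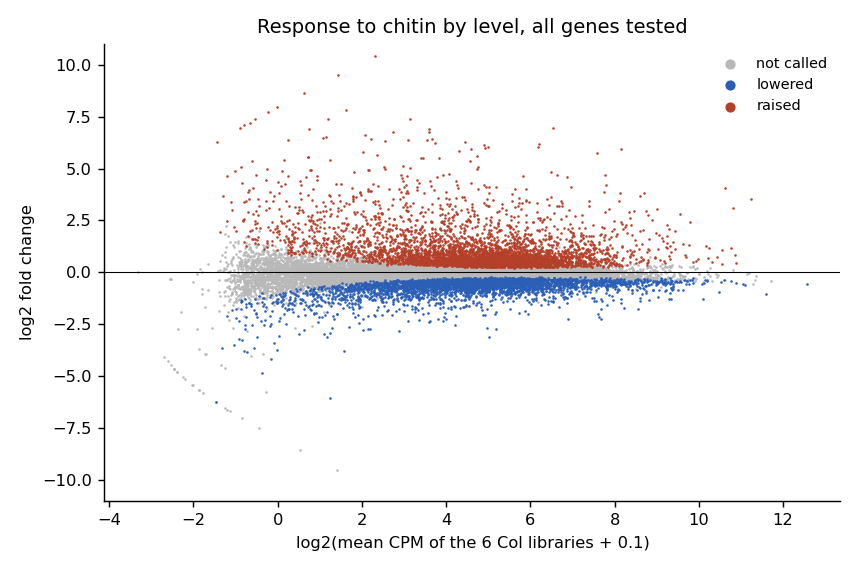
Log2 fold change of chitin against mock (vertical axis) against log2 of the mean CPM of the 6 Col libraries plus 0.1 (horizontal axis), 1 point per gene tested, coloured by the call at an adjusted p below 0.05. The raised genes reach further from 0 than the lowered ones over most of the range of levels, with 119 genes raised at least 16-fold and 4 lowered as much. The grey points trailing to the lower left were not called.

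The genes raised at least 2-fold took 3.70 to 4.05% of the reads in the mock libraries and 12.5 to 13.3% in the chitin libraries. The genes lowered as much took 2.78 to 3.59% in mock and 1.06 to 1.48% in chitin. These shares describe genes that were chosen on the same contrast. The 119 genes raised at least 16-fold held 0.0347 to 0.0353% of reads in mock and 0.732 to 0.852% after chitin. For 38 genes all mock libraries were under 1 CPM and all chitin libraries at or above 5 CPM, and no gene showed the reverse. One of the 38, the F-box gene AT4G22030, named after its values were seen, had no read in any mock library and 5.89, 11.3 and 12.2 CPM in the chitin libraries.

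The 10 genes of that kind with the highest level after chitin included the glutathione transferase genes GSTF3 and GSTU12, of enzymes that join glutathione to reactive compounds. GSTF3 (AT2G02930) was at 0.492, 0.648 and 0.468 CPM in the mock libraries and 41.8, 55.7 and 30.3 CPM in the chitin libraries (log2 fold change 6.29 ± 0.29, adjusted p = 7.64e-09). The alternative oxidase gene AOX1D (AT1G32350), whose product bypasses part of the mitochondrial respiratory chain, was at 0.0547, 0.177 and 0.351 CPM in the mock libraries and 23.1, 28.9 and 19.1 CPM in the chitin libraries (log2 fold change 6.90 ± 0.39, adjusted p = 3.2e-08). AOX1D had 1 to 6 reads in a mock library and GSTF3 8 to 11. The gap between their groups follows in part from the rule that named them. DMP1 (AT3G21520), a membrane protein gene, was at 0.656, 0.648 and 0.935 CPM in the mock libraries and 35.1, 59.1 and 46.4 CPM in the chitin libraries. YLS9 (AT2G35980), which is also known as NHL10, was at 0.656, 0.53 and 0.818 CPM in the mock libraries and 29.8, 46.1 and 39.2 CPM in the chitin libraries, and the subtilase gene AT4G10530 at 0.219, 0.295 and 0.526 CPM in the mock libraries and 21.2, 26.1 and 31.5 CPM in the chitin libraries. The rule that named these genes needs a raised call and groups that do not overlap, so neither is a further result (log2 fold change 5.96 ± 0.34, adjusted p = 3.29e-08 for DMP1, log2 fold change 5.83 ± 0.26, adjusted p = 6.72e-09 for YLS9 and log2 fold change 6.23 ± 0.49, adjusted p = 5.44e-07 for AT4G10530). CCOAMT (AT1G67980), a methyltransferase gene of phenylpropanoid metabolism, rose as well, with the lowest chitin value in experiment 3 (28.5, 29.7 and 13.2 CPM, log2 fold change 6.77 ± 0.41, adjusted p = 5.55e-08).

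The experiments were compared by sign and size. Of the 8083 called genes, 8063 had the same sign in all 3 (99.8%), against 6506 of the 12911 genes not called (50.4%). The calls were made on the same libraries and need replicates that go the same way, so the first share describes the called genes and is no independent check. The genes raised at least 2-fold had a median log2 difference of 1.61 in experiment 1, 1.79 in experiment 2 and 1.57 in experiment 3. Their largest difference fell in experiment 2 for 828 of 1553 genes. The lowered genes had medians of -1.32, -1.28 and -1.31. The range over the experiments was above 1 on the log2 scale for 328 of the 1553 raised and 152 of the 602 lowered genes. The widest were named by rule. TBL26 (AT4G01080), a wall-acetylation family gene, was at 1.37, 3.3 and 17.8 CPM in the mock libraries and 0.815, 1.2 and 1.37 CPM in the chitin libraries, and its groups overlapped. Its call (log2 fold change -2.71 ± 0.79, adjusted p = 0.0146) was lost without the third mock library, without the first chitin library and without experiment 2 or 3. The uncharacterized gene AT1G53620 had differences of 3.06, 5.23 and 2.21 in experiments 1, 2 and 3. The lipid transfer protein gene AT5G46900 was at 13.5, 11.4 and 17.4 CPM in the mock libraries and 1.88, 5.6 and 1.06 CPM in the chitin libraries, with no overlap (log2 fold change -2.35 ± 0.42, adjusted p = 0.000692).

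**Figure D2:**
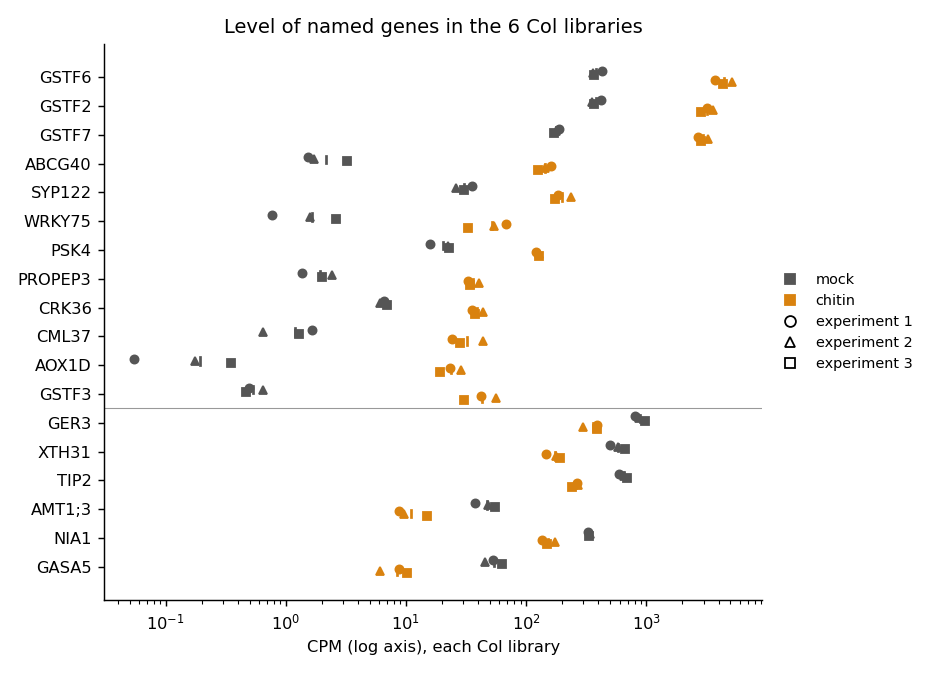
CPM (log axis) of named genes in each Col library, mock in grey and chitin in orange, with a symbol for each experiment and a vertical tick at the group mean. The 12 genes above the line rose and the 6 below it fell. The mock and chitin values do not overlap in any of them, which was a condition of naming for most.

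Genes of early signalling rose in part, beside 21.2% raised and 17.3% lowered over all genes tested. Of 23 calcium-dependent protein kinase genes, which couple calcium to phosphorylation, 12 rose and 2 fell (median log2 fold change 0.45, against 0.00 for all genes tested). CPK29 (AT1G76040) was at 24.6, 23.1 and 19.4 CPM in the mock libraries and 51.7, 50.9 and 51.1 CPM in the chitin libraries (log2 fold change 1.20 ± 0.14, adjusted p = 1.54e-05), and CPK9 (AT3G20410) at 47, 50.4 and 53.2 CPM in the mock libraries and 95.7, 104 and 100.1 CPM in the chitin libraries (log2 fold change 0.99 ± 0.10, adjusted p = 5.97e-06). Calmodulin-like and EF-hand genes, which encode calcium sensors, rose in 29 of 65 cases and fell in 2. CML37 (AT5G42380) changed from near 1 CPM to above 24 CPM, with 1.64, 0.648 and 1.29 CPM in the mock libraries and 24.3, 43.9 and 28 CPM in the chitin libraries (log2 fold change 4.73 ± 0.35, adjusted p = 3.19e-07). AT5G39670 was at 9.13, 6.54 and 6.43 CPM in the mock libraries and 69.6, 87.3 and 59.2 CPM in the chitin libraries, while AT2G41090 went the other way, from 680.8 to 875.7 CPM in mock to 367.5 to 436.4 CPM in chitin (log2 fold change -0.91 ± 0.12, adjusted p = 7.23e-05). Among 33 genes of glutamate receptor-like and cyclic nucleotide-gated channels, 12 rose and 1 fell, and GLR2.5 (AT5G11210) rose from 0.109, 0.413 and 0.526 to 10.1, 11.1 and 12 CPM (log2 fold change 4.97 ± 0.30, adjusted p = 5.85e-08). Of 5 NADPH oxidase genes tested, 3 rose: RBOHD (AT5G47910), the main oxidase of the immune oxidative burst, from 81, 61.1 and 83.2 to 123, 119 and 130.5 CPM (log2 fold change 0.72 ± 0.13, adjusted p = 0.000739), RBOHA (AT5G07390) from 4.54, 4.13 and 6.19 to 10.8, 11.5 and 13.8 CPM (log2 fold change 1.28 ± 0.24, adjusted p = 0.000958), and RBOH F (AT1G64060) by 0.57 ± 0.09 on the log2 scale (adjusted p = 0.000303). The lowered counts rested on few libraries: that of the calcium-dependent kinases was 0 without the first chitin, the second mock or the third mock library and 1 without any other, and that of the calmodulin-like genes was 1 without the first mock, the third mock or the third chitin library. The call of the 1 lowered channel gene, GLR3.6, was lost without the first chitin or the second mock library and without experiment 1 or 2. Without the third chitin library, 2 channel genes were lowered.

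Receptor-like kinase families were among those with the highest share of raised members. The cysteine-rich receptor-like kinases, whose extracellular part carries cysteine-rich domains, rose in 29 of 38 cases with 1 lowered, at a median of 0.99. CRK36 (AT4G04490) was at 6.62, 6.07 and 6.9 CPM in mock and 35.5, 43.9 and 37.5 CPM in chitin (log2 fold change 2.58 ± 0.13, adjusted p = 1.34e-08). CRK31 (AT4G11470) rose from 0.93, 0.354 and 1.23 CPM to 11, 14.7 and 15.2 CPM (log2 fold change 4.01 ± 0.31, adjusted p = 5.43e-07), and CRK20 (AT4G23280) from 1.2, 0.884 and 1.17 CPM to 10.5, 17.5 and 19 CPM (log2 fold change 3.84 ± 0.29, adjusted p = 3.85e-07). The lowered count of 1 became 0 or 2 when a library other than the second mock library was left out. Of 16 wall-associated kinase and WAK-like genes, a family with members that bind pectin of the wall, 14 rose and none fell (median 0.99). WAKL10 (AT1G79680) was at 0.383, 0.471 and 0.468 CPM in mock and 19.7, 22.8 and 19.4 CPM in chitin (log2 fold change 5.53 ± 0.20, adjusted p = 4.66e-09), and WAK3 (AT1G21240) at 8.1, 5.42 and 6.84 CPM in mock and 36.4, 50.5 and 45.1 CPM in chitin. Lectin receptor kinases rose in 37 of 62 cases and fell in 5 (median 0.85), and AT5G65600 was at 0.711, 0.825 and 0.993 CPM in the mock libraries and 15.4, 15.5 and 15.8 CPM in the chitin libraries (log2 fold change 4.20 ± 0.22, adjusted p = 1.96e-08). Without the first mock library no lectin receptor kinase was lowered, and the lowered count was 1 to 3 without the third mock library or any 1 of the chitin libraries. The raised shares of all 3 families, 76.3%, 87.5% and 59.7%, stood above the 21.2% of all genes. These genes have close copies, and reads of similar copies could be divided or dropped by the authors' counting.

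PROPEP2 (AT5G64890) and PROPEP3 (AT5G64905), precursors of the Pep danger peptides, rose from 0.383, 0.648 and 1.05 to 15.4, 16.7 and 12.4 CPM (log2 fold change 4.41 ± 0.29, adjusted p = 1.33e-07) and from 1.37, 2.42 and 1.99 to 32.9, 40.8 and 34 CPM (log2 fold change 4.22 ± 0.21, adjusted p = 1.52e-08). They were the 2 of 8 members of their list that passed, 25.0%, near the 21.2% raised among all genes tested. PSK4 (AT3G49780), a precursor of the growth peptide phytosulfokine, rose from 15.9, 22.5 and 22.7 to 120.3, 129 and 128 CPM (log2 fold change 2.63 ± 0.17, adjusted p = 9.02e-08). Genes of RALF peptides, which act through the FERONIA receptor family, moved in both directions. RALF1 (AT1G02900) rose from 56.7, 69.2 and 85.8 to 117, 112 and 106 CPM (log2 fold change 0.66 ± 0.16, adjusted p = 0.00481), a call lost without experiment 1 or 2. RALFL34 fell from 73.5, 84.2 and 85 to 40.4, 43.8 and 41.1 CPM (log2 fold change -0.95 ± 0.11, adjusted p = 1.48e-05) and RALF23 from 75, 55.3 and 88.2 to 48.3, 36.5 and 41.1 CPM (log2 fold change -0.80 ± 0.18, adjusted p = 0.00363). In all, 8 of 36 growth peptide genes rose and 8 fell, 22.2% each, near the 21.2% and 17.3% of all genes tested. The raised count was 5 without the first chitin or the third mock library. Of 20 plant U-box ligase genes, 9 rose and none fell, though 3 fell with upper-quartile scaling and 1 without the third chitin library. PUB23 (AT2G35930) and PUB24 (AT3G11840), ligases known to damp immune signalling, went from 23.1 ± 4.27 to 93.5 ± 23.9 CPM (mean ± SD, n = 3) and from 6.85 ± 0.344 to 34.8 ± 3.85 CPM. Their log2 fold changes were 2.02 ± 0.20 and 2.34 ± 0.15, with adjusted p = 5.33e-06 and 8.01e-08.

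Among transcription factors, 36 of 63 WRKY genes rose (57.1%) and 3 fell (4.76%). NAC genes rose in 32 of 75 cases (42.7%) and fell in 4 (5.33%). AP2/ERF genes rose in 33 of 90 cases (36.7%) and fell in 7 (7.78%), while 3 fell without experiment 1. Over all genes tested, 21.2% rose and 17.3% fell. The lowered NAC count was 2 without the first mock library, 1 without the first chitin, the third mock or the third chitin library, and 8 with the experiments as a block. WRKY75 (AT5G13080) went from 0.766, 1.59 and 2.63 to 67.5, 54.3 and 32.7 CPM (log2 fold change 4.96 ± 0.33, adjusted p = 1.46e-07), highest in the first chitin library. WRKY55 (AT2G40740) rose from 0.109, 0.177 and 0.117 to 8.59, 14.5 and 11.1 CPM (log2 fold change 6.33 ± 0.40, adjusted p = 8.67e-08), with 2, 3 and 2 reads in the mock libraries. WRKY49 (AT5G43290) went down, from 3.5, 3.89 and 4.73 to 0.94, 0.6 and 0.963 CPM (log2 fold change -2.25 ± 0.32, adjusted p = 0.000105). NAC042 (AT2G43000) rose from 0.985, 1.53 and 0.818 CPM to 20.1, 27.6 and 22.5 CPM (log2 fold change 4.39 ± 0.31, adjusted p = 2.17e-07). The ethylene response factor genes ERF6 (AT4G17490) and ERF-1 (AT4G17500) rose from 3.17 ± 0.831 to 50.9 ± 11.1 CPM and from 13.4 ± 0.346 to 84.7 ± 11.9 CPM (mean ± SD, n = 3; log2 fold change 4.0 ± 0.23, adjusted p = 4.27e-08, and log2 fold change 2.65 ± 0.14, adjusted p = 1.96e-08). VQ motif genes, whose products bind WRKY factors, rose in 16 of 28 cases and none fell, while 1 fell without the third chitin library. C2H2 zinc finger genes rose in 18 of 58 cases and fell in 6. Their lowered count was 3 without experiment 1, 2 or 3. STZ (AT1G27730), a repressor of stress genes, was at 6.24, 3.95 and 5.96 CPM in mock and 46.5, 60.2 and 55.2 CPM in chitin (log2 fold change 3.32 ± 0.21, adjusted p = 1.02e-07).

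MYB genes rose in 20 of 92 cases (21.7%, near the 21.2% of all genes) and fell in 8 (8.70%, against 17.3%). MYB51 (AT1G18570) and MYB122 (AT1G74080), regulators of indole glucosinolates, were higher at 187, 222 and 178 CPM and 35.8, 44 and 29.8 CPM in chitin, against 19.9, 19.8 and 19.3 and 1.75, 3.01 and 1.7 CPM in mock (log2 fold change 3.32 ± 0.13, adjusted p = 4.66e-09, and log2 fold change 4.08 ± 0.22, adjusted p = 2.25e-08). MYB34 (AT5G60890), a further regulator of the same pathway, fell from 42.3, 37.7 and 43.1 to 23.1, 23.7 and 18.7 CPM (log2 fold change -0.91 ± 0.15, adjusted p = 0.000269), and MYB29, of the aliphatic branch, fell as well (log2 fold change -2.79 ± 0.35, adjusted p = 3.92e-05). Of 100 basic helix-loop-helix genes 15 rose and 15 fell, near the shares of all genes, and upper-quartile scaling left 8 raised, while the experiments as a block gave 24 lowered. Homeodomain genes, many of them regulators of development, rose in 14 of 85 cases (16.5%) and fell in 20 (23.5%), also near those shares, with a median of -0.16. Leaving out 1 experiment lowered the count of fallen homeodomain genes to 9 to 11, and that of raised MYB genes to 13 without experiment 1 or 2.

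**Figure D3:**
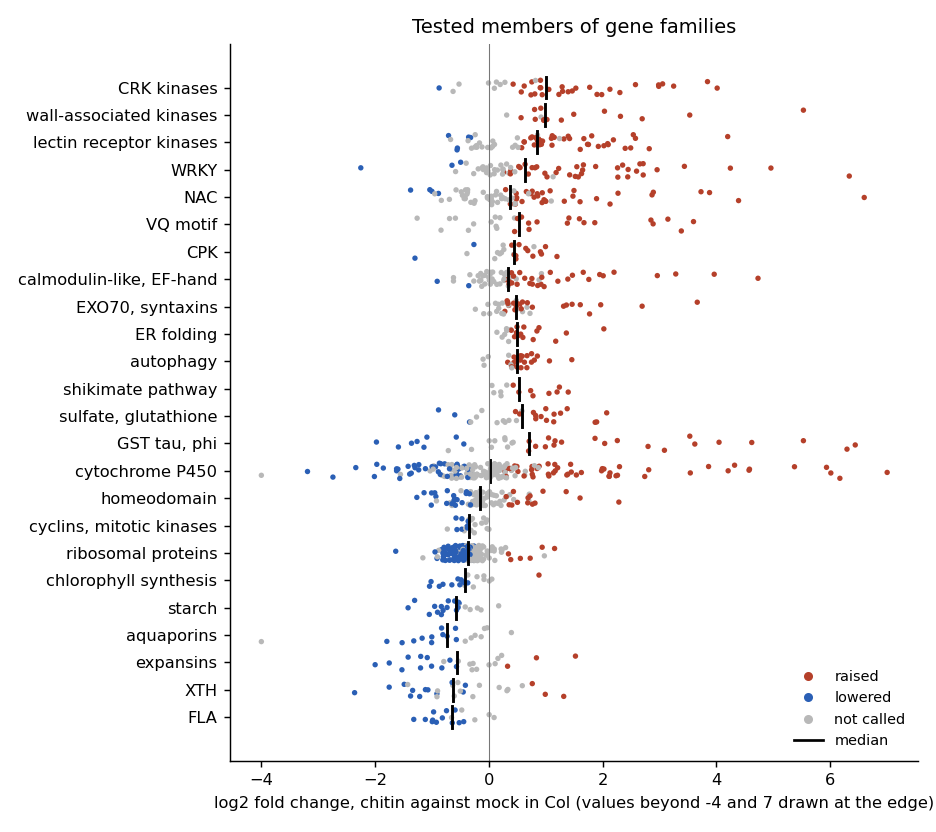
Log2 fold change of chitin against mock in Col for every tested member of 24 families or gene lists, 1 point per gene, red for raised, blue for lowered and grey for not called, with the median as a black bar, and values beyond -4 and 7 at the edge. Medians of the receptor-kinase and WRKY rows lie to the right of 0, and those of the ribosomal protein, aquaporin and wall enzyme rows to the left.

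In primary metabolism the shikimate pathway, which makes the precursor of aromatic amino acids, rose in 8 of 13 genes and none fell (median 0.53). The raised share was 61.5%, against 21.2% of all genes tested. AT1G22410, a DAHP synthase gene of the first step, was at 345, 297 and 361 CPM in the mock libraries and 880.2, 803 and 952 CPM in the chitin libraries (log2 fold change 1.39 ± 0.20, adjusted p = 9.24e-05). EMB1144 (AT1G48850), the chorismate synthase gene, was at 155, 173 and 185 CPM in mock and 388, 372 and 449.8 CPM in chitin (log2 fold change 1.24 ± 0.12, adjusted p = 4.03e-06). Genes of tryptophan synthesis were among the largest gains in reads: TSB1 (AT5G54810) and TSA1 (AT3G54640), the beta and alpha subunits of tryptophan synthase, went from 335, 229.5 and 273 to 1629, 1433 and 1415 CPM (log2 fold change 2.42 ± 0.16, adjusted p = 1.6e-07) and from 189, 157 and 215 to 1400, 1271 and 1292 CPM (log2 fold change 2.82 ± 0.14, adjusted p = 1.72e-08). Of 27 genes of sulfate uptake, assimilation and glutathione synthesis, 15 rose and 3 fell (median 0.58). AKN2 (AT4G39940), which makes active sulfate for sulfation, was at 136, 104 and 158 CPM in mock and 536, 473 and 468 CPM in chitin (log2 fold change 1.89 ± 0.16, adjusted p = 8.68e-07), and SERAT2;1 (AT1G55920), a serine acetyltransferase of cysteine synthesis, at 19.1, 21.9 and 25.2 CPM in mock and 79.6, 80.5 and 81.5 CPM in chitin (log2 fold change 1.87 ± 0.14, adjusted p = 2.88e-07). The lowered count of 3 became 1 without the third mock library. CYSC1 (AT3G61440), which detoxifies cyanide, rose from 706, 630.0 and 693 to 1720, 1592 and 1565 CPM (log2 fold change 1.26 ± 0.12, adjusted p = 2.51e-06). In the methyl cycle, SAHH2 (AT3G23810) fell (log2 fold change -0.85 ± 0.16, adjusted p = 0.00112), as did 3 more of 11 genes, while 1 rose. The lowered count was 7 with the experiments as a block or with upper-quartile scaling. The oxidative pentose phosphate pathway had 4 of 16 genes raised and 4 lowered (median -0.02). That is 25.0% each, against 21.2% raised and 17.3% lowered over all genes tested. G6PD6 (AT5G40760) rose (log2 fold change 1.08 ± 0.13, adjusted p = 2.76e-05) and G6PD3 (AT1G24280), of the same enzyme family, fell (log2 fold change -0.71 ± 0.17, adjusted p = 0.00538). Without experiment 1 the lowered count was 1.

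Of the 10 largest gains in CPM, 5 were of glutathione transferases. CPM of a gene scales with its transcript length, so these gains rank genes by reads and not by molecules. Tau and phi glutathione transferases rose in 20 of 38 cases and fell in 8 (median 0.70), while 5 fell without experiment 1. GSTF6 (AT1G02930) had the largest gain among called genes whose groups did not overlap, from 428, 358 and 365 to 3760, 5203 and 4334 CPM (log2 fold change 3.53 ± 0.18, adjusted p = 2.02e-08). GSTF2 (AT4G02520) and GSTF7 (AT1G02920) followed, from 421, 351 and 366 to 3173, 3612 and 2875 CPM (log2 fold change 3.08 ± 0.14, adjusted p = 6.8e-09) and from 188, 176 and 171 to 2721, 3260 and 2862 CPM (log2 fold change 4.04 ± 0.16, adjusted p = 4.66e-09). GSTF6 and GSTF7 are close copies, as are GSTF2 and GSTF3, and counts that share reads between copies could not be checked. GSTF11 (AT3G03190) and GSTU20 (AT1G78370) went down, from 21.6, 17.2 and 21.1 to 6.21, 6.53 and 7.1 CPM (log2 fold change -1.59 ± 0.15, adjusted p = 2.88e-06) and from 299.9, 210.4 and 386 to 101, 88.7 and 159 CPM (log2 fold change -1.36 ± 0.29, adjusted p = 0.00221). Without the libraries of experiment 1, the call of GSTU20 was lost. Cytochrome P450 genes rose in 50 and fell in 40 of 186 cases, 26.9% and 21.5%, against 21.2% and 17.3% of all genes, and had a median of 0.02. UDP-glycosyltransferases rose in 38 and fell in 12 of 115, and class III peroxidases rose in 24 and fell in 8 of 59. The ABC transporter gene ABCG40 (AT1G15520) was at 1.53, 1.71 and 3.21 CPM in the mock libraries and 160.4, 143 and 125 CPM in the chitin libraries (log2 fold change 6.05 ± 0.34, adjusted p = 3.2e-08), but only 5 of 38 ABCG genes rose and 8 fell, and with the experiments as a block 10 rose. The lowered count was 5 without the first mock library and 4 without the first chitin, the second chitin or the third mock library. That of the peroxidases was 5 without the first chitin library. Without experiment 1, 20 cytochrome P450 genes fell, and with the experiments as a block 22 glycosyltransferase genes fell. PEN3 (AT1G59870), an ABC transporter of indole-derived compounds, gained reads from 841, 646 and 742 to 1613, 1545 and 1834 CPM (log2 fold change 1.16 ± 0.22, adjusted p = 0.00112).

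Genes of secretion, protein folding and autophagy rose in most cases tested, against 21.2% of all genes. Of 40 genes of EXO70 exocyst subunits and syntaxins, which tether and fuse secretory vesicles, 23 rose and none fell (median 0.48). With the experiments as a block or with upper-quartile scaling 1 fell. SYP122 (AT3G52400), a syntaxin of the plasma membrane, was at 35.4, 26 and 30.6 CPM in the mock libraries and 184, 236 and 175 CPM in the chitin libraries (log2 fold change 2.69 ± 0.17, adjusted p = 9.23e-08). Of 21 genes of protein folding in the endoplasmic reticulum, 14 rose and none fell (median 0.49), CRT3 (AT1G08450), a calreticulin for receptor folding, from 109, 119 and 112 to 211, 268 and 288 CPM (log2 fold change 1.17 ± 0.14, adjusted p = 2.11e-05). Autophagy genes rose in 22 of 29 cases and none fell (median 0.49), ATG8E (AT2G45170) from 42.7, 33 and 30.4 to 124, 98.3 and 68.9 CPM (log2 fold change 1.46 ± 0.19, adjusted p = 4.51e-05). The counts fell to 15 exocyst and syntaxin genes without experiment 2, to 8 folding genes without experiment 3 and to 13 autophagy genes without experiment 1. Of 16 genes of sugar transporters and cell wall invertases, 4 rose (25.0%) and 3 fell (18.75%), near the 21.2% and 17.3% of all genes tested. With the experiments as a block 7 rose and 5 fell. The sugar transporter STP4 (AT3G19930) was at 98.7, 100.1 and 96.7 CPM in mock and 297, 369.6 and 349 CPM in chitin. Its log2 fold change was 1.78 ± 0.16 (adjusted p = 2.13e-06). SWEET17 (AT4G15920) fell from 38.4, 29.6 and 41.7 to 27.2, 27.6 and 28.5 CPM (log2 fold change -0.40 ± 0.13, adjusted p = 0.0232). The call of SWEET17 was lost without mock library 1 or 3, chitin library 1 or 2, or experiment 1 or 3.

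Genes of water and nitrogen transport fell more often than they rose, while over all genes tested 17.3% fell and 21.2% rose. Aquaporin genes fell in 11 of 19 cases and none rose (median -0.73), while 1 rose without the third chitin library. TIP2 (AT3G26520), a tonoplast aquaporin, was at 595, 654 and 694 CPM in the mock libraries and 266, 271 and 241 CPM in the chitin libraries (log2 fold change -1.32 ± 0.11, adjusted p = 9.63e-07), and TIP2;2 (AT4G17340) at 63.5, 124 and 101 CPM in mock and 29.5, 37.8 and 32.9 CPM in chitin. Of 13 genes of nitrate and ammonium uptake and nitrate reduction, 3 rose and 7 fell (median -0.82). With the experiments as a block 6 rose. Ammonium transporters differed: AMT1;1 (AT4G13510) rose from 295, 281 and 295 to 497, 586 and 653 CPM (log2 fold change 1.0 ± 0.14, adjusted p = 8.1e-05), and AMT1;3 (AT3G24300) fell from 37.9, 48.4 and 54.8 to 8.78, 9.67 and 14.9 CPM (log2 fold change -2.07 ± 0.25, adjusted p = 2.44e-05). The root markers summed higher after chitin, as given above, and 5 of 16 rose, but none did without the first mock library. Their part in these changes was not tested. NIA1 (AT1G77760), a nitrate reductase gene, fell from 330.2, 342 and 332 to 134, 174 and 149.9 CPM (log2 fold change -1.13 ± 0.14, adjusted p = 2.69e-05).

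Genes of wall growth fell more often than they rose, against 17.3% lowered and 21.2% raised over all genes tested. Of 24 expansin genes, which loosen cell walls, 11 fell and 3 rose, and 1 rose without the first mock, the first chitin or the second mock library. EXPB3 (AT4G28250) was at 84.5, 82 and 129.7 CPM in the mock libraries and 17.9, 17.4 and 38.3 CPM in the chitin libraries (log2 fold change -2.0 ± 0.34, adjusted p = 0.000432), and EXPA15 (AT2G03090) at 61.4, 50.8 and 98.1 CPM in mock and 20.5, 16.7 and 25 CPM in chitin. Xyloglucan endotransglucosylases fell in 12 of 28 cases and rose in 3, of which none did without experiment 1. XTH31 (AT3G44990) was at 502, 585 and 659 CPM in the mock libraries and 146, 179 and 193 CPM in the chitin libraries (log2 fold change -1.75 ± 0.14, adjusted p = 5.64e-07), and XTH6 (AT5G65730) at 17.6, 21.7 and 21.4 CPM in mock and 5.01, 3.87 and 2.99 CPM in chitin (log2 fold change -2.36 ± 0.20, adjusted p = 1.1e-06). Of 17 fasciclin-like arabinogalactan protein genes 12 fell and none rose, FLA8 (AT2G45470) from 125, 139 and 118 to 53.5, 61.7 and 60.9 CPM (log2 fold change -1.12 ± 0.12, adjusted p = 8.81e-06). Cellulose synthase genes fell in 5 of 9 cases, CESA1 (AT4G32410) from 446, 457 and 452 to 292, 258 and 321 CPM (log2 fold change -0.64 ± 0.12, adjusted p = 0.0007), and 3 of 4 GASA peptide genes fell, GASA5 (AT3G02885) from 53.4, 45.5 and 63.1 to 8.78, 6.07 and 10.3 CPM (log2 fold change -2.68 ± 0.24, adjusted p = 1.93e-06). Without experiment 1, 3 cellulose synthase genes fell. Cyclin and mitotic kinase genes fell in 8 of 23 cases, in 3 without the second chitin library and 4 without the third, and in 14 with the experiments as a block.

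Cytosolic ribosomal protein genes fell in 149 of 293 cases and rose in 6 (median -0.37), 50.9% against 17.3% of all genes. The lowered count was 93 without the first mock library, 83 without the third chitin library, 54 without experiment 1, 66 without experiment 3 and 227 with the experiments as a block. AT1G15250, a zinc-binding ribosomal protein gene, was at 34.2, 32.8 and 34.1 CPM in the mock libraries and 16.1, 20.7 and 16.9 CPM in the chitin libraries (log2 fold change -0.91 ± 0.16, adjusted p = 0.000449). AT5G60390, a translation elongation factor gene, was among the 10 largest losses in reads, from 2343, 2297 and 2007 to 1446, 1528 and 1689 CPM (log2 fold change -0.51 ± 0.12, adjusted p = 0.00481), but its call was lost without the libraries of experiment 1. Of 20 chlorophyll synthesis genes 11 fell and 1 rose, and of 22 starch genes 16 fell and none rose (median -0.59). The lowered chlorophyll count was 7 without experiment 1 or 2. APL3 (AT4G39210), a subunit of the enzyme that supplies starch synthesis, was at 68.8, 69.7 and 121 CPM in the mock libraries and 28.1, 28.1 and 48.3 CPM in the chitin libraries (log2 fold change -1.31 ± 0.24, adjusted p = 0.000761). Of the 10 largest losses in CPM, 4 were of Rubisco small subunit genes, with RBCS3B (AT5G38410) at 2595, 2316 and 2566 CPM in mock and 1794, 1529 and 1811 CPM in chitin (log2 fold change -0.54 ± 0.11, adjusted p = 0.00211). RBCS1A had the largest loss, and its call (log2 fold change -0.54 ± 0.19, adjusted p = 0.0387) was lost without any 1 of the 3 mock libraries, the first chitin library or the second. The mesophyll markers, RBCS1A among them, had lower sums after chitin, as given above, and their part in the lowered plastid genes was not tested. GER3 (AT5G20630), a germin-like protein gene, fell from 803, 871 and 982 to 392, 297 and 389.8 CPM (log2 fold change -1.30 ± 0.19, adjusted p = 0.000147).

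Some changed genes were neighbours on the chromosome. Of 1551 genes raised at least 2-fold with a chromosome position, 447 (28.8%) lay in runs of 2 or more adjacent tested genes, and 37 runs held 3 or more. Among 601 lowered genes, 72 (12%) did. The share in runs grows with the number of genes in a class, so the 2 shares are not compared. The longest raised run held 8 genes, the acyl-transferase gene AT5G39090 and 7 germin-like or cupin genes up to GER2 (AT5G39190), with log2 fold changes of 1.53 to 5.43. AT5G39110 in it was at 0.547, 0.766 and 2.1 CPM in the mock libraries and 27.3, 28.1 and 31.6 CPM in the chitin libraries (log2 fold change 4.67 ± 0.33, adjusted p = 2.22e-07). Cupin genes of this run are close copies. In it, the call of AT5G39150 was lost without the first or second mock library or the third chitin library, and that of AT5G39160 without the second mock, the third mock or the second chitin library. The 10 tested genes flanking the run had log2 fold changes of -0.55 to 2.44. A run of 5 genes on chromosome 4 held AT4G04480 and CRK36, CRK37, CRK38 and CRK39. AT4G04480, with no read in mock, was at 4.01, 6.33 and 5.27 CPM in chitin, at least 30.3-fold above the level of 3 reads in each mock library. The 4 kinases rose by 2.30 to 3.25 on the log2 scale, while the next gene, CRK40, changed by 0.10 and did not pass the test. Among lowered genes the longest run held the thalianol cluster, a group of adjacent genes that make a root triterpene: AT5G47980, CYP705A5, CYP708A2 and THAS1 (AT5G48010), which was at 36.3, 28.1 and 109.5 CPM in the mock libraries and 3.57, 7.07 and 9.18 CPM in the chitin libraries (log2 fold change -3.12 ± 0.53, adjusted p = 0.000431). The call of AT5G47980 was lost without the libraries of experiment 3. All 4 genes of the run were highest in the third mock library. Without that library 9.03% of lowered genes lay in runs, and without the libraries of experiment 1 it was 6.99%.

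**Figure D4:**
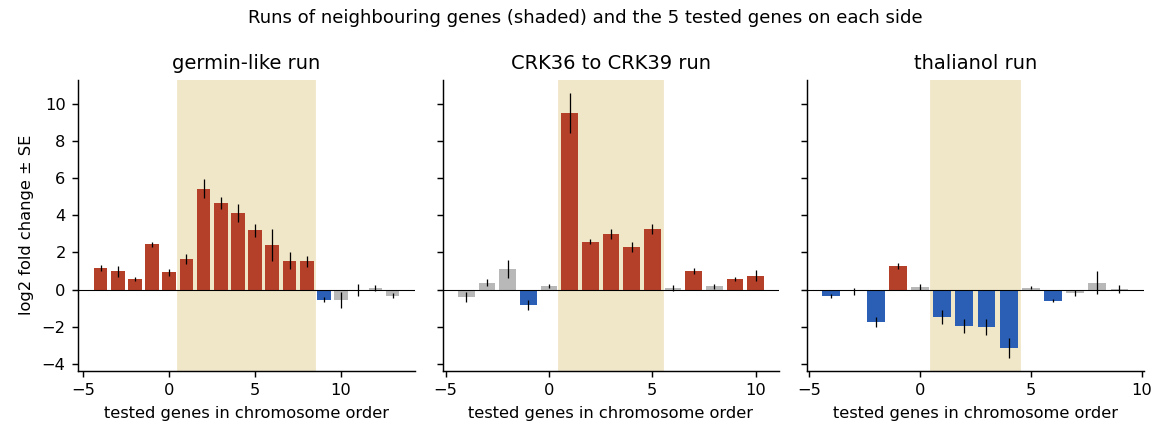
Log2 fold change ± SE of chitin against mock for tested genes in chromosome order, in 2 raised runs and 1 lowered run (shaded) with 5 tested genes on each side, red for raised, blue for lowered and grey for not called. The fold change of the first gene of the CRK36 to CRK39 run is fitted from mock libraries with no read and is not a measured ratio.

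The promoters of raised genes held W-box cores more often. A W-box core is TTGACC or TTGACT on either strand, letters bound by WRKY factors, searched from 250 bases before to 50 after the gene start in TAIR10.1. It was in 33.0% of the 20879 promoters of tested genes. The share was 51.5% for genes raised at least 2-fold, 55.9% at 4-fold and 65.3% at 16-fold, and 28% for genes lowered at least 2-fold. Taken alone, TTGACC was in 24.0% and TTGACT in 37.5% of promoters of the genes raised at least 2-fold, against 14.4% and 22.3% of all. The telo-box, AAACCCTA, and TGGGCC are letters of promoters of ribosomal protein genes. AAACCCTA was in 5.42% of all promoters, in 2.45% for genes raised at least 2-fold, in 6.66% for genes lowered at least 2-fold and in 10.3% for genes lowered under 2-fold. TGGGCC was in 18.1% of all promoters and in 24.4% for genes lowered under 2-fold. It was in fewer promoters both of genes raised at least 2-fold, 7.16%, and of genes lowered as much, 9.48%. In the promoters of the cytosolic ribosomal protein genes, AAACCCTA was in 37.5% and TGGGCC in 56.0%. A match is a description of letters and not of binding.

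**Figure D5:**
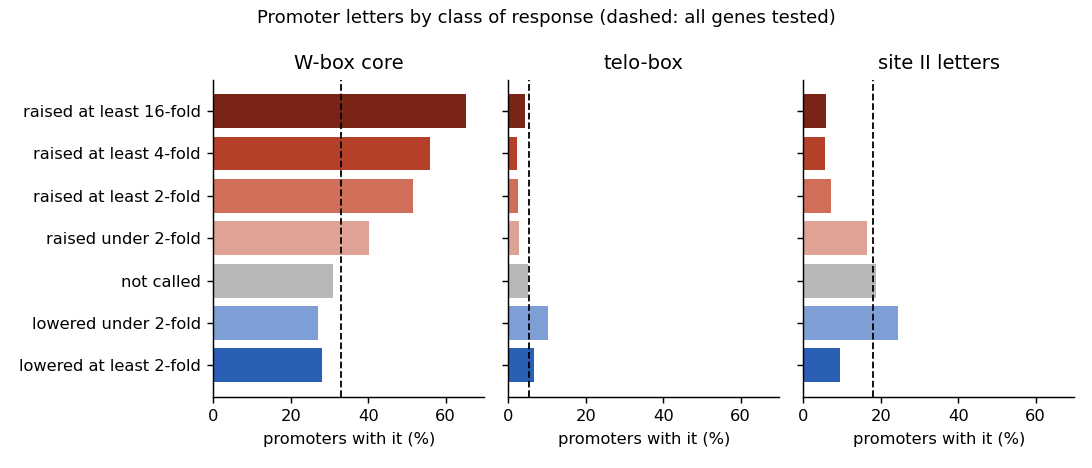
Percent of promoters with a W-box core (left), the telo-box AAACCCTA (middle) and TGGGCC (right), by class of response, with the percent over all tested genes as a dashed line. Bars start at 0. The W-box core is in 28% for genes lowered at least 2-fold, 26.9% for those lowered under 2-fold and 30.9% for those not called. The share is 65.3% for genes raised at least 16-fold.

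The 250 bases before the start of the CRK run's 4 kinases show the letters in a family whose adjacent genes moved together, those of PROPEP3 and GSTF7 show several copies, and those of GSTF2, with a similar gain in reads, show none. Sequences are 5′ to 3′ on the gene's strand, with W-box cores in capitals, and in AT5G60390 with the telo-box and TGGGCC letters in capitals. Positions in TAIR10.1 are chr4:2234690-2234939 (minus strand) for CRK36, chr4:2238120-2238369 (plus strand) for CRK37, chr4:2241822-2242071 (plus strand) for CRK38, chr4:2259248-2259497 (plus strand) for CRK39, chr5:25939312-25939561 (plus strand) for PROPEP3, chr1:659981-660230 (minus strand) for GSTF7, chr4:1112034-1112283 (minus strand) for GSTF2 and chr5:24288346-24288595 (plus strand) for AT5G60390.
CRK36: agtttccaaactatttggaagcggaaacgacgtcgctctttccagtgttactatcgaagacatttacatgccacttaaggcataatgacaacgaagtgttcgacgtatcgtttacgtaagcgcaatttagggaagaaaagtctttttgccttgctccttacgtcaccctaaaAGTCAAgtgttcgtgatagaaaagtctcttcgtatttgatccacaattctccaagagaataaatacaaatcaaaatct
CRK37: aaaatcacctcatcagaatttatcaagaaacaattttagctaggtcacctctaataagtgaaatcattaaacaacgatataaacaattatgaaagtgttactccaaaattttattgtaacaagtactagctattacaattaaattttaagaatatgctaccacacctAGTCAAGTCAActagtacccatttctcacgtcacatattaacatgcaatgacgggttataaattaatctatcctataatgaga
CRK38: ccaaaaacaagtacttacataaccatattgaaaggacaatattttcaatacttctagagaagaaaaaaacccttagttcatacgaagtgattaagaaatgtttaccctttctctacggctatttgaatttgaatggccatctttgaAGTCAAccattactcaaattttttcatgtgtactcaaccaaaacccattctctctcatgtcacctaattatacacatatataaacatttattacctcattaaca
CRK39: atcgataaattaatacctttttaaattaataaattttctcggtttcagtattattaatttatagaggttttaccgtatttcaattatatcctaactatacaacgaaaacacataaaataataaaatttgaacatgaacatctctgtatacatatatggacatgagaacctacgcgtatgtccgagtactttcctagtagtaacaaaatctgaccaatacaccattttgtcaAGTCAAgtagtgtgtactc
PROPEP3: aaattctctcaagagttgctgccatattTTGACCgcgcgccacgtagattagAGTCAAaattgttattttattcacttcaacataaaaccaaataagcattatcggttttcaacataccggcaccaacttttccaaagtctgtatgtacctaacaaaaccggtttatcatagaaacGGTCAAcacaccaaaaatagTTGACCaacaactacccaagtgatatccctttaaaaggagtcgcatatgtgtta
GSTF7: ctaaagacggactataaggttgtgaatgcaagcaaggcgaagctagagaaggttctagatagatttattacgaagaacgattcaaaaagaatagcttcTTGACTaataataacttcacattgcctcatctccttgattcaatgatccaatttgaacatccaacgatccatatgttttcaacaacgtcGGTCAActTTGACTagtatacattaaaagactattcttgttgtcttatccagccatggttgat
GSTF2: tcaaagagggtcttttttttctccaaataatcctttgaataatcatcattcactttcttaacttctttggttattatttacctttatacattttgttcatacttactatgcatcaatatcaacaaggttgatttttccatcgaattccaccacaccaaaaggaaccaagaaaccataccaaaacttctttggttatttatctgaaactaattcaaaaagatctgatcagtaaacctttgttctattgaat
AT5G60390: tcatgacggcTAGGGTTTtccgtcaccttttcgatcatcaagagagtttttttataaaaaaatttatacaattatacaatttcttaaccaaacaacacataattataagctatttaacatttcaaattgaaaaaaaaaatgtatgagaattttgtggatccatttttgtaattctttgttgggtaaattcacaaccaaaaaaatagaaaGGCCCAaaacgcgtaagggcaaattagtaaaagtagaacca
CRK37 held 2 cores, PROPEP3 held 4 and GSTF7 held 3, and the other CRK genes held 1 each.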

How the data were processed

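Whole-seedling poly(A) RNA was sequenced from a directional library kit, per the labels' protocols. The authors deposited 1 table of raw read counts per gene. TopHat2 2.0.10, HTSeq 0.6.1, cutadapt 1.5, CASAVA 1.8.2 and the TAIR10 build are listed, without roles, in the submitters' processing notes. The sources used here do not give how strand and shared reads were handled, so antisense, overlapping and near-identical genes are uncertain. Counts were fitted with edgeR 4.0.16 (R 4.3.3) over 12 libraries in 4 groups, with TMM scaling, filterByExpr, 8 residual degrees of freedom, and the contrast Col chitin against Col mock. A call is an adjusted p below 0.05. The fit was tested on simulated data.

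Same-numbered mock and chitin libraries deviated together (r = 0.384, 0.237 and 0.439), against -0.336 to 0.001 for other pairs, so the numbers pair the samples. The series' design text calls them independent experiments. Libraries of a group differed beyond counting noise, with 10.7 to 26.5 of chi-square for each degree of freedom.

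The members, gene lists and tests were chosen with earlier results of these data known. Named genes were the largest gains and losses in CPM whose groups did not overlap, in each list as many as 3 raised and 3 lowered members, the longest runs, genes that went from under 1 to at least 5 CPM, and the widest ranges between experiments. Gene symbols, positions and promoter sequences are from RefSeq's TAIR10.1. Alternatives were the experiment block, the Col libraries alone, RLE and upper-quartile scaling, no filter, DESeq2 1.42.0, and leaving out each Col library or experiment.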

Additional observations from a re-analysis of the deposited data

Results flagged for a closer look

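Marker genes were also summed in libraries that the comparison did not use, the mock libraries of mapkkk5-1, and set against the highest Col mock library. The 9 seed storage and oil body genes summed to 34.2 CPM in the first mapkkk5-1 mock library and to 84.5 CPM in the third, above 24.8 CPM in the first Col mock library. The 8 vascular markers summed to 262 CPM in the third mapkkk5-1 mock library, above 256 CPM. The part of this signal in the results was not tested. These libraries entered the estimate of spread, and the fit of the 6 Col libraries alone called 7628 genes, against 8083.

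The difference between the chitin responses of the genotypes was tested as an interaction in edgeR's quasi-likelihood fit. Without the experiments as a block, it passed an adjusted p of 0.05 for 0 of 20994 genes, with 275 (1.31%) at an unadjusted p below 0.05. With the block, added after seeing the data, 2 genes passed and 653 (3.11%) were at an unadjusted p below 0.05. None of the 298 named genes passed in either fit, and no other tool was run, so these counts do not show that the responses were alike.

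The 2 genes were named after their values were seen. PBS3 (AT5G13320), of salicylic acid synthesis, responded less in mapkkk5-1 by -1.61 on the log2 scale (adjusted p = 0.0106 with the block and 0.168 without). It was at 6.78, 7.01 and 6.78 CPM in Col mock, 90.9, 147 and 98.9 CPM in Col chitin, 6.85, 6.87 and 7.12 CPM in mapkkk5-1 mock and 31, 42.6 and 37 CPM in mapkkk5-1 chitin. For AT5G25260 the difference was -1.92 (adjusted p = 0.013 with the block and 0.0899 without), with 72.2, 113 and 76.4 CPM in Col chitin and 28.6, 32.4 and 27.1 CPM in mapkkk5-1 chitin. The chitin values of the genotypes did not overlap in either gene, which follows in part from how the 2 genes were chosen and is no further support.

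Groups of 3 libraries were too small for a test of single outlying libraries.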

How the results depend on the processing

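The count of called genes, 8083, ran from 5385 to 7462 when 1 library or experiment was left out, that of raised genes from 3152 to 4169 and that of lowered genes from 2128 to 3293. With the replicate block, which follows the pairing of the libraries, 10558 genes were called, and among named genes it changed only the call of STM, which was gained. The share of called genes with 1 sign in all experiments was 99.8%, 99% with the replicate block or upper-quartile scaling, 99.9% in the Col libraries alone, and 98.6 to 99.6% with libraries left out. The share of reads in raised genes was 12.9% in chitin and 3.9% in mock, 11.4% and 3.14% with upper-quartile scaling, and 11.8 to 13.6% and 3.39 to 4.3% with libraries left out. Raised genes in runs made 28.8%, 26.1% with DESeq2, 37% at 1.5-fold and 27.5 to 29.6% with libraries left out. Lowered genes in runs made 12%, 21.6% at 1.5-fold and 6.99 to 13.4% with libraries left out. The W-box core was in 51.5% of promoters of raised genes, 55.9% at 4-fold. The cause of these shifts was not tested. The fits that leave libraries out also hold fewer samples. No named call reversed. Of their values with libraries left out, 269 lost the call and 1 gained it, and under the other settings 18 lost it and 3 gained it. Depth limits calls near 0.152 to 0.200 CPM.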

Other observations

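Other gene groups changed as well, beside 21.2% raised and 17.3% lowered over all genes tested. Of 11 genes of alternative respiration and mitochondrial stress, 6 rose and none fell, though 1 fell with the experiments as a block or with upper-quartile scaling. NDA2 (AT2G29990), an alternative NAD(P)H dehydrogenase, was at 17.2, 12.3 and 13.6 CPM in the mock libraries and 56.5, 50.8 and 49.5 CPM in the chitin libraries (log2 fold change 1.86 ± 0.13, adjusted p = 2.32e-07), and BCS1 (AT3G50930) at 12, 11.9 and 13.8 CPM in the mock libraries and 34.4, 59.9 and 60.6 CPM in the chitin libraries (log2 fold change 2.04 ± 0.23, adjusted p = 1.33e-05). Neither gene's groups overlapped, which was a condition for naming list members.

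Of 32 genes of very-long-chain fatty acids and the cuticle, 15 fell (46.9%) and 2 rose (6.25%), against 17.3% and 21.2% of all genes tested. The lowered count was 7 and 8 without experiments 1 and 2. The raised count was 1 without the second mock, the third mock or the third chitin library, and 5 with the experiments as a block. CER4 (AT4G33790), an alcohol-forming reductase of wax synthesis, fell from 7.11, 7.13 and 9.23 to 3.13, 3.13 and 2.79 CPM (log2 fold change -1.38 ± 0.24, adjusted p = 0.000586). KCS12 (AT2G28630), a condensing enzyme gene of the same list, rose from 13.2, 9.9 and 12.1 to 38.7, 38.6 and 32.9 CPM (log2 fold change 1.64 ± 0.19, adjusted p = 1.5e-05). Each adjusted p was computed by edgeR over all genes tested.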
